A study of Mus musculus with 4 samples.

Results

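NK-receptor T cells are blood lymphocytes that carry the CD3 signalling chains of the T cell receptor together with genes that natural killer (NK) cells use for activation. They were picked out of the single-cell RNA profiles of mouse blood by a gate on UMIs (unique molecular identifiers, 1 per captured RNA molecule). A cell had to carry at least 2 UMIs of Cd3d, Cd3e and Cd3g together and at least 2 UMIs of Klrb1c (NK1.1), Ncr1 (NKp46), Fcer1g and Tyrobp together. It had to lack Cd4 and Cd40lg UMIs and the myeloid genes Csf1r, Ms4a6c and Csf3r, with at most 1 UMI of the B cell genes Cd79a, Cd79b and Ms4a1. The gate found 112 cells among the 15439 barcodes that passed quality limits (0.725%), and 9.48% of the 1181 T cells without Cd4 or Cd40lg UMIs. These 15 genes chose the cells, so their levels are described below and not tested.

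Conventional T cells read antigen through the T cell receptor, whose CD3 chains pass the signal on through ITAM motifs. NK cells instead weigh activating against inhibitory receptors of the Ly49 (Klra) and NKG2 (Klrc, Klrd1, Klrk1) families, and the ITAM adaptors encoded by Fcer1g and Tyrobp (DAP12) carry the activating signals. Some T cells of both the alpha-beta and the gamma-delta lineage also express NK receptors, and such cells are known as innate-like T cells for responding without a long priming phase.

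Blood came from immunocompetent C57BL/6J mice aged 10 weeks that had been given acute lymphoblastic leukaemia (ALL) and were treated with dasatinib, a tyrosine kinase inhibitor whose targets include ABL and SRC family kinases. It was drawn 1 week into dasatinib, with all animals then in remission, and dosing went on for 4 more weeks. Mice alive and in remission at day 100 after inoculation were classed as Cured (6 mice) and those that had relapsed as Relapsed (6 mice), so the outcome lay after sampling and all groups share the leukaemia and the drug. Leukocytes were frozen, thawed, sorted for live cells and pooled from 3 mice per library, which gave 2 Cured and 2 Relapsed libraries made with the 10x Genomics 5′ chemistry. Cells within a pool carry no mouse identity, so the pooled library is the replicate and no p-value measures the spread between mice.

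The libraries held 7184045 to 10840397 UMIs. Gate cells numbered 26 in Cured replicate 1, 32 in Cured replicate 2, 13 in Relapsed replicate 1 and 41 in Relapsed replicate 2, and per-library values are given in this order from here on. Their median depth was 3664, 3811, 3814 and 3330 UMIs per cell, and their sums held 85601, 131173, 47357 and 140336 UMIs. Relapsed replicate 1 therefore gave the fewest cells and the shallowest sum, and 279 of its barcodes had under 200 genes. Summed over all barcodes before quality limits, gene counts of the 2 Relapsed libraries differed far more (chi-square of 64.6 per gene) than those of the 2 Cured libraries (6.93). Cured replicate 1 against Relapsed replicate 1 gave 67.3. Across libraries 131 barcode sequences occurred more than once, among them those of 2 gate cells.

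Gate cells were set beside a pair of neighbouring populations of the same libraries. The first was other T cells without Cd4 or Cd40lg UMIs and with no UMI of the 4 NK genes (1025 cells, here called other T cells, with a median of 3320 UMIs). The second was NK cells with no Cd3 UMI (678 cells, median 1807.5 UMIs, against 3564.5 in the gate). In gate cells the Cd3 sum ran from 2 to 37 UMIs with a median of 8, and the NK sum from 2 to 63 with a median of 8. Cells lay on both sides of each threshold, with no gap in the sums.

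**Figure D1:**
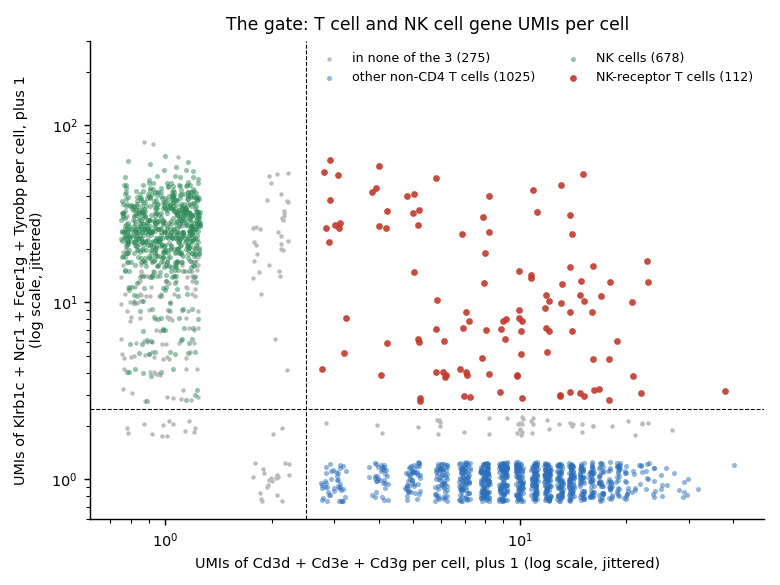
Each point is 1 barcode that met the Cd4, B cell and myeloid limits of the gate and had a UMI of a Cd3 gene or an NK gene. The x axis gives its Cd3d, Cd3e and Cd3g UMIs plus 1, the y axis its Klrb1c, Ncr1, Fcer1g and Tyrobp UMIs plus 1, both jittered on log scales, and the dashed lines mark the thresholds. The 112 gate cells (red) spread over the upper right, with 1025 other T cells (blue) and 678 NK cells (green) along the axes.

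Cells close to the thresholds were described without a test. With the T cell criteria met, 44 cells had an NK sum of 1 and stood just outside, and 70.5% of them carried CD8 UMIs (Cd8a or Cd8b1). They carried the markers of the label more often than cells with an NK sum of 0, with Ikzf2 in 22.7%, Xcl1 in 18.2% and Klra7 in 20.5% against 3.12%, 2.24% and 2.05%. The 16 cells with an NK sum of 2 stood just inside, and 4 of them carried CD8. That share was 16.3% at an NK sum of 3 to 9 (49 cells) and 0 of 47 cells at 10 or more. From the NK side, Ikzf2 was found in 0 of 26 cells with a Cd3 sum of 1 and 0 of 10 with a sum of 2. It was found in 28.2% of 39 cells with a sum of 3 to 9 and in 42.3% of 26 with a sum of 10 or more. Cells that only just passed the Cd3 threshold and carried Klrb1c or Ncr1 thus lacked Ikzf2 UMIs, as most NK cells did.

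Markers of the label that the gate did not use are described next. They came with the label, which was chosen with earlier results of these data known, so they are no independent check of it. Klra7 (Ly49G, a receptor for MHC class I) had UMIs in 58.0% of gate cells (exact 95% binomial interval 48.3 to 67.3), in 2.05% of other T cells and in 49.9% of NK cells. Xcl1, a chemokine that draws cross-presenting dendritic cells, had UMIs in 49.1% (39.5 to 58.7), 2.24% and 15% (102 of 678). For Ikzf2, which encodes the transcription factor Helios, the shares were 33.9% (25.3 to 43.5), 3.12% and 2.06%. Among 9956 B cells (median 2102 UMIs), which should lack all 3, these genes had UMIs in 6, 2 and 1 cells. With every cell thinned to 1000 UMIs, 111 gate cells remained and the shares were 31.5%, 20.7% and 7.21% in the gate. They were then 1.01%, 0.61% and 1.11% in other T cells and 36.5%, 9.97% and 1.45% in NK cells. Each marker was found in part of the gate, and its distribution over the cells is given below.

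Barcodes that hold a T cell and an NK cell together would pass the gate, so values that bear on this are given here. Barcodes with both T and B cell genes numbered 135 in the same libraries. Scaled from B to NK cell numbers, that rate corresponds to 8.0 barcodes, against 112 gate cells. T-and-B barcodes had a median of 5002 UMIs, and gate cells 3564.5. One gate cell lay over the 95th percentile of UMIs, and Scrublet, which called 6 barcodes in all (0.0371%, too few to stand for all doublets), called none of them. Whether any single gate cell holds 2 cells was not tested.

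Antigen receptor genes set the gate apart from the CD8 T cells that make up most T cells without CD4. CD8 UMIs were present in 10.7% of gate cells (5.66 to 18.0), 79.1% of other T cells and 0.147% of NK cells. Gamma-delta constant genes (Trdc, Tcrg-C1, Tcrg-C2 or Tcrg-C4) were present in 28.6% (20.4 to 37.9), 3.41% and 10.0%, and alpha-beta constant genes (Trac, Trbc1 or Trbc2) in 74.1% (65.0 to 81.9), 79.4% and 29.8%. B cells, which should lack them, had these UMIs in 0.392%, 0.0100% and 0.301% of cells. In NK cells without any Cd3 UMI the gamma-delta and the alpha-beta shares were both far above those of B cells. Neither kind of UMI alone thus told T cells from NK cells here. After thinning, CD8 UMIs remained in 3.6% of gate cells, 61.4% of other T cells and 0.161% of NK cells. Gamma-delta UMIs remained in 12.6%, 1.52% and 4.98%, and alpha-beta UMIs in 38.7%, 46.8% and 18.3%.

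By these genes the 112 cells fell into 8 with CD8 UMIs only, 28 with gamma-delta UMIs only, 4 with both and 72 with neither (64.3%, 54.7 to 73.1). All 8 CD8-only cells and 72.2% of the cells with neither carried alpha-beta constant UMIs. Ikzf2 was found in 5 of 8 CD8-only cells, 12 of 28 gamma-delta-only cells and 19 of 72 cells with neither. Klra7 was present in 4 of 8, 13 of 28 and 45 of 72, and Ncr1 in 0 of 8, 10 of 28 and 26 of 72. Cells of each receptor class were found in all 4 libraries except those with both, which Cured replicate 2 lacked. The only CD8-only cell of Relapsed replicate 1 was among the gate cells with 3 or more Lyz2, S100a8 or S100a9 UMIs, counted below. Zbtb16 (PLZF), which defines invariant NKT cells, had UMIs in 0 of 112 gate cells. That allows up to 2.68% of cells with a UMI (3 counts of the total), but the gene had UMIs in only 2 of 1025 other T cells and 2 of 678 NK cells, so these counts do not limit the share of cells that express it. Foxp3, the regulatory T cell factor that often accompanies Helios, was also at 0 of 112. It had UMIs in only 2 of 1025 other T cells and 0 of 678 NK cells, and cells with Cd4 UMIs were left out by the gate. Its count of 0 therefore does not limit the share of cells that express it either.

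Summed UMIs of gate cells were compared with those of other T cells of the same library by edgeR's quasi-likelihood test with the library as a block. A log2 fold change is positive where the gate was higher, and levels are in CPM, the counts of a gene scaled to the same total in every sum. Of 4098 genes tested 548 passed an adjusted p of 0.05 (13.4%), 254 of them higher (6.2%) and 294 lower (7.17%). Without a count filter the split was 220 higher and 410 lower. The median of all tested genes was -0.03. NK receptor, cytotoxic and innate-type genes travel with the 4 NK genes of the gate, so their direction came with the choice of cells, and the sizes are what is described. Klra7, Xcl1 and Ikzf2 came with the label, so their p-values in these contrasts are no independent check of it. A sum cannot tell fewer cells with a gene from less RNA per cell.

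Of the 26 NK receptor genes listed, 25 were in the count tables and 20 passed the filter on low counts. All 20 were higher in the gate (6.2% of all genes were), with a median log2 fold change of 5.35. The median was 4.91 with genes absent from other T cells set to a floor of 3 UMIs over the summed libraries. The filter also took in the gate and NK sums. Members near 0 in other T cells, such as Klrb1a and Klrb1b, therefore passed it through the populations where they were high. The count of 20 was thus largely set by the choice of cells and by the filter. Klra7 measured 701, 389, 507 and 506 CPM in gate cells and 9.02 ± 5.43 CPM (SD, n = 4 libraries) in other T cells, a log2 fold change of 5.66 (SE 0.22, adjusted p = 1.1e-60). The gate libraries were all far above the other T cells. Klra1 (Ly49A) measured 210, 114, 63.3 and 178 CPM, and 5 UMIs of it were found in other T cells, all in 1 cell. Its log2 fold change was 6.19. Klra4 (Ly49D, an activating Ly49) rested on 66 UMIs in 16 gate cells against 1 UMI in other T cells, a ratio of 577 with a counting interval of 100 to 23144. Klrb1a (NKR-P1A) had 22 UMIs in the gate and none in other T cells, and was at least 64.1-fold higher. Ly49 genes form a family of related sequences. How reads shared between them were counted is not given in the sources used here, so single Klra values are uncertain.

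The NKG2 genes differed less, since other T cells also carried some of them. Klrd1 (CD94, the partner of NKG2 chains) measured 1215, 907, 655 and 919 CPM in the gate and 301 ± 12.7 CPM in other T cells (log2 fold change 1.35). For Klrk1 (NKG2D) the values were 350, 351, 84.5 and 378 against 17.4 ± 8.45 CPM (3.84). Klrc1 (NKG2A) measured 386, 335, 190 and 292 against 25.3 ± 6.00 CPM (3.27). In each of these 3 genes all gate libraries lay above all libraries of other T cells, and Relapsed replicate 1 was the lowest gate library.

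Among 18 tested genes of the ITAM adaptor and proximal kinase list (20 listed, median 0.26), 4 were higher, 3 were lower and 11 did not pass. Lat2 (NTAL), an adaptor of B, NK and mast cells, measured 117, 99.1, 21.1 and 99.8 CPM against 2.04 ± 1.69 CPM (log2 fold change 4.95). Lyn and Fcgr3 were also higher (3.78 and 3.65). Syk had 6 UMIs in the gate and its call (adjusted p = 0.0476) was lost without any 1 of the 4 libraries. The T cell adaptor Lat measured 152, 274, 127 and 157 CPM in the gate against 482 ± 98.3 CPM (-1.71, adjusted p = 6.03e-23). Cd247 (CD3 zeta) was lower too (-0.87). Of the 38 Lat2 UMIs in the gate, 24 lay in the 30 cells with 3 or more Gzma UMIs described below. Fcer1g, a gate gene, measured 1752, 1769, 1161 and 1824 CPM in the gate and 4854 ± 427 CPM in NK cells. Tyrobp was more uneven, at 2301, 1845, 465 and 1397 CPM, with UMIs in 59.8% of gate cells.

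T cell receptor and coreceptor genes were lower than in other T cells in 9 of 14 tested members and higher in none (7.17% of all genes were lower), with a median of -0.88. Cd8b1, the CD8 beta chain, measured 35, 0, 42.2 and 21.4 CPM against 907 ± 154 CPM (-5.84), with no overlap between the libraries of both populations. Cd6, Themis and Cd5, which tune the strength of T cell receptor signals, were lower. Cd6 had 2 gate UMIs, a ratio to other T cells of 0.0893 (counting interval 0.0107 to 0.327), and Themis 3, a ratio of 0.121 (0.0249 to 0.36), a call lost with DESeq2. Cd5 was lower by a log2 fold change of -1.43, a call lost without Relapsed replicate 2 (adjusted p = 0.0538). Trac was lower (-1.04) at 81.8, 122, 127 and 99.8 CPM, and Cd27 and Cd28 did not pass (-0.57 and -0.73, adjusted p = 0.0518 and 0.0534). Of the 10 listed gamma-delta genes 3 passed the count filter (Trdc, Trgv2 and Trdv4), and Trdv4, with 9 gate UMIs and none in other T cells, passed it through the populations where it was high. Trgv2, a gamma chain variable segment, measured 105, 99.1, 106 and 121 CPM in the gate against 12.8 ± 7.48 CPM (2.73, adjusted p = 1.43e-10), with close values in the 4 gate libraries. Trdc was 2.13 higher and varied more, at 58.4, 30.5, 127 and 99.8 CPM.

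Of 16 tested transcription factors (22 listed, median 0.12), 5 were higher, 6 were lower and 5 did not pass. Ikzf2 (GRCm38, chr1:69531214-69687245, minus strand) measured 117, 183, 190 and 214 CPM in the gate against 11.9 ± 4.32 CPM, a log2 fold change of 3.61 (SE 0.32, adjusted p = 8.97e-23). Every gate library lay above every library of other T cells. Tbx21 (T-bet) was 3.70 higher, Eomes 1.82, Zeb2 1.83 and Id2 1.32. Lef1 and Tcf7, factors of naive and memory T cells, were lower by log2 fold changes of -1.73 and -0.95, and Bcl11b, which guards T cell identity, by -1.67. Satb1, Klf2 and Bach2 were lower as well (-1.03, -0.41 and -1.85), and the Bach2 call, on 5 gate UMIs, was lost without Cured replicate 1 or Cured replicate 2 and with DESeq2.

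Of 8 tested chemokine and cytokine genes (median 1.69) 3 were higher and 5 did not pass. Xcl1 measured 210, 274, 169 and 342 CPM against 7.24 ± 1.79 CPM (4.65, adjusted p = 5.44e-24), and every gate library lay above every library of other T cells. Ccl5 measured 27219, 21742, 16787 and 22817 CPM against 5679 ± 2223 CPM (1.70), and Ifng 117, 45.7, 148 and 28.5 against 10.1 ± 2.40 CPM (2.45). Of 13 tested cytotoxic genes 10 were higher and none lower, with a median of 1.13. Ctsw (1.13), Nkg7 (1.00) and Serpinb6b (2.57) were higher, as was Prf1, the pore-forming perforin (2.44). Prf1 was uneven, at 222, 183, 0 and 99.8 CPM, and so was granzyme A (Gzma), at 5152, 5573, 211 and 2893 CPM. Gzma was 5.06 higher than in other T cells, a call lost without Cured replicate 2 (adjusted p = 0.0509) or without Relapsed replicate 2 (0.0504).

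Cytokine receptors, homing genes and naive T cell genes completed the contrast. Il2rb, the beta chain shared by the IL-2 and IL-15 receptors, measured 689, 526, 507 and 705 CPM against 100 ± 2.47 CPM in other T cells (2.33, adjusted p = 8.85e-44). Ifngr1 and Il18rap were higher too (0.96 and 1.85). Of 10 tested cytokine receptors 4 were higher and 2 lower, and Il7r, the IL-7 receptor, did not pass (-0.29, adjusted p = 0.0658). Naive T cell genes were lower in 9 of 13 tested members and higher in none (median -0.95). The other T cells were not split into naive and memory cells. Lef1 had UMIs in 56.5% of them and Ccl5 in 31.4%, against 32.1% and 97.3% of gate cells. How the gate differs from memory CD8 T cells alone was not tested. Igfbp4 had 2 UMIs in the gate against 872 in other T cells, a ratio of 0.0201 with a counting interval of 0.00243 to 0.0727. Ccr7, which leads naive cells into lymph nodes, measured 70.1, 30.5, 63.3 and 99.8 CPM against 385 ± 55.7 CPM (-2.85). Homing and adhesion genes were higher in 10 of 20 tested members, Ccr2 (2.71), Cd44 (1.77) and the integrin chain Itgb2 (1.34) among them, and Ccr7 alone was lower. Cxcr3, a receptor for interferon-induced chemokines, was 1.02 higher, a call lost without Cured replicate 1 (0.77) or Cured replicate 2 (0.87). With Cured replicate 2 left out the calls of S1pr5, Itga2 and Fasl were also lost. With all cells thinned to 1000 UMIs, those of Trac, Bcl11b, Eomes, Cd44 and Cxcr3 were lost (adjusted p = 0.103, 0.103, 0.0579, 0.434 and 0.367).

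The interferon-response genes were lower in 3 of 10 tested members, with a median of -0.63. Ifi27l2a (-1.66) and Bst2 (-0.73) were among them, and the Bst2 call was lost without Cured replicate 2 (adjusted p = 0.0513) or without Relapsed replicate 1 (0.0538). Immediate early genes were higher in 5 of 12 (Dusp1, Ier2, Fos, Junb and Zfp36, median 0.48), a list that thawing and sorting can move. Fos measured 1121, 221, 359 and 420 CPM in the gate, and Cured replicate 1 was its highest library in other T cells (484 CPM) and NK cells (1091 CPM) too. The Fos, Junb and Zfp36 calls were lost without Cured replicate 1, those of Junb and Zfp36 also without Relapsed replicate 2, and Zfp36 stood at -0.085 in thinned cells. Without the library block the Dusp1 call was lost as well (adjusted p = 0.388). Heat shock genes were lower in 2 of 9 (Hspe1 and Hsp90ab1, median -0.26). Of 7 tested cell cycle genes Tubb5 was lower and Hmgb2 higher, the latter not without Cured replicate 1, and Mki67 had a UMI in 1 of 112 gate cells. Tnfrsf18 (GITR) and Tnfrsf9 (4-1BB) were the checkpoint-list members that were higher, of 6 tested. The Tnfrsf18 call was lost in thinned cells (0.25, adjusted p = 0.881) and the Tnfrsf9 call without Cured replicate 2 (adjusted p = 0.389).

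**Figure D2:**
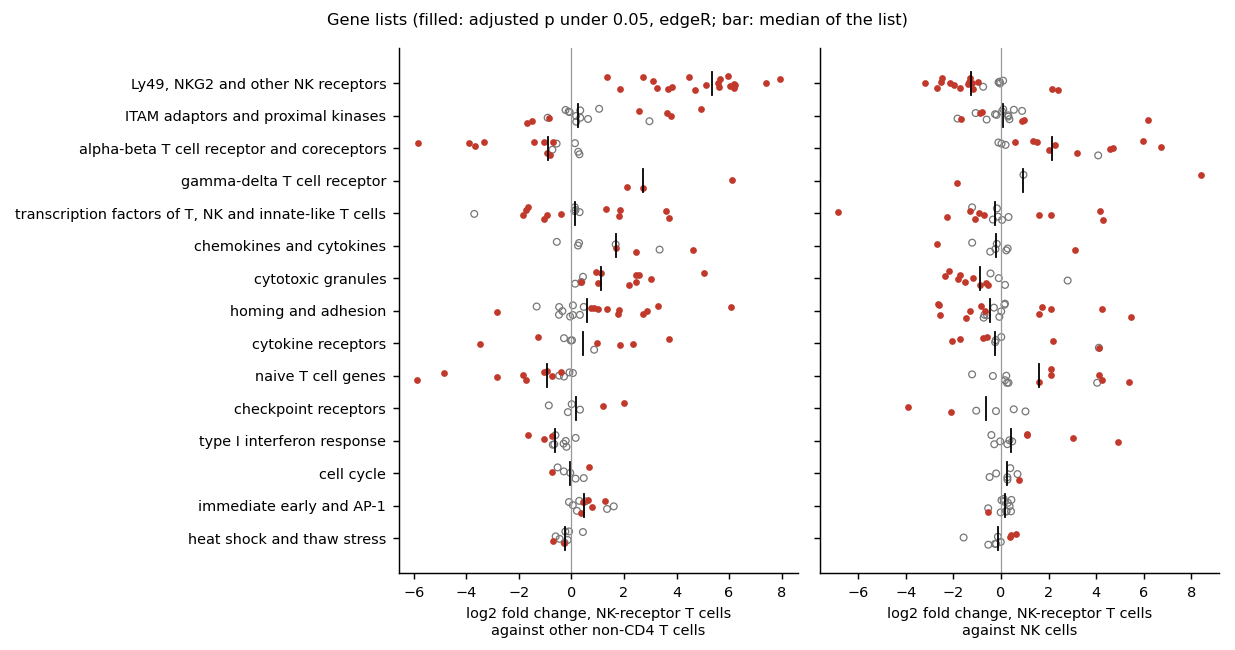
Each point is 1 tested gene of a list, placed by its log2 fold change of gate cells against other T cells (left) or against NK cells (right). Filled points passed an adjusted p of 0.05 in edgeR and the bar is the list's median. NK receptors lie to the right of 0 in the left panel (20 of 20 higher) and mostly to the left in the right panel (13 of 20 lower).

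Markers of other cells were checked as whole lists. Of 9 B cell markers 8 had UMIs in the gate, with a summed level of 422 to 724 CPM against 379 to 595 CPM in other T cells, and Cd22 was at 0. Of 7 platelet markers 5 were at 0, Pf4 and Ppbp among them, and the sum did not exceed 7.62 CPM. All 5 basophil and mast cell markers were at 0. Red cell markers were found in the gate only in Relapsed replicate 1 (148 CPM), the library where they were also highest in other T cells (3436 CPM) and NK cells (4258 CPM). Neutrophil markers summed to 1133, 22.9, 2956 and 21.4 CPM in the gate against 20.4 to 47.8 CPM in other T cells. S100a8 and S100a9 were the 2 genes called in that list, and 220 of their 226 UMIs lay in 2 gate cells. Gate cells with 3 or more Lyz2, S100a8 or S100a9 UMIs numbered 4, and 534 genes passed without them. Of 8 monocyte and dendritic cell markers 4 were at 0 (Fcgr1, Clec9a, Flt3 and Siglech). Their sum of 2336 to 2893 CPM, against 728 to 1017 CPM in other T cells, was mostly Ly6c2, which memory T cells and some NK cells also express.

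Against NK cells, alpha-beta T cell receptor and coreceptor genes were mostly higher in the gate (10 of 14 tested). NK receptor and cytotoxic genes were mostly lower (13 of 20 and 9 of 13). Of 4098 genes 537 passed (13.1%), 317 higher (7.74%) and 220 lower (5.37%), where DESeq2 called 315 higher and 123 lower. The median of all tested genes was -0.10. NK cells were defined by the absence of Cd3 UMIs, so T cell genes came with that choice. NK cells were also shallower per cell, as the medians above show, which bears on shares of cells with a UMI.

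Of 20 tested NK receptors 13 were lower, 2 (Cd160 and Klra6) were higher and 5 did not pass (median -1.27). Klra8 (Ly49H, which recognises a cytomegalovirus protein) measured 70.1, 191, 42.2 and 85.5 CPM in the gate against 850 ± 63.4 CPM in NK cells (-2.71, adjusted p = 1.3e-30). Klra4 measured 175, 206, 84.5 and 143 against 1047 ± 80.6 CPM (-2.48), and Klra9 and Klra3 were lower as well (-1.97 and -2.52). All 4 gate libraries lay below all NK libraries in these genes. Klra7 measured 648 ± 74.2 CPM in NK cells and Klra1 158 ± 44.9 CPM. Both overlapped the gate values, with differences of -0.10 (SE 0.13) and 0.09 (SE 0.26) that did not pass. The NKG2 chains Klrc1 and Klrd1 did not pass either (-0.05 and -0.04), and Klrk1 was lower (-0.97). Summed over all its cells, the gate thus held some NK receptors near their NK cell level and others far below it. These sums average over unlike cells. Pooled over the 30 cells with 3 or more Gzma UMIs, described below, Klra8 stood at 407 CPM and Klra4 at 460 CPM. In the other 82 cells they stood at 22.5 and 74.0 CPM. Klrc1, Klrk1 and Klra7 parted less, at 567, 610 and 738 against 238, 244 and 441 CPM. Klra1 went the other way, at 107 against 164 CPM. Klra6 was the only Ly49 gene called higher than in NK cells. It measured 117, 53.4, 63.3 and 143 CPM in the gate, 23.4 ± 15.5 CPM in NK cells and 2.13 ± 1.75 CPM in other T cells, which gave log2 fold changes of 2.41 and 5.12.

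**Figure D3:**
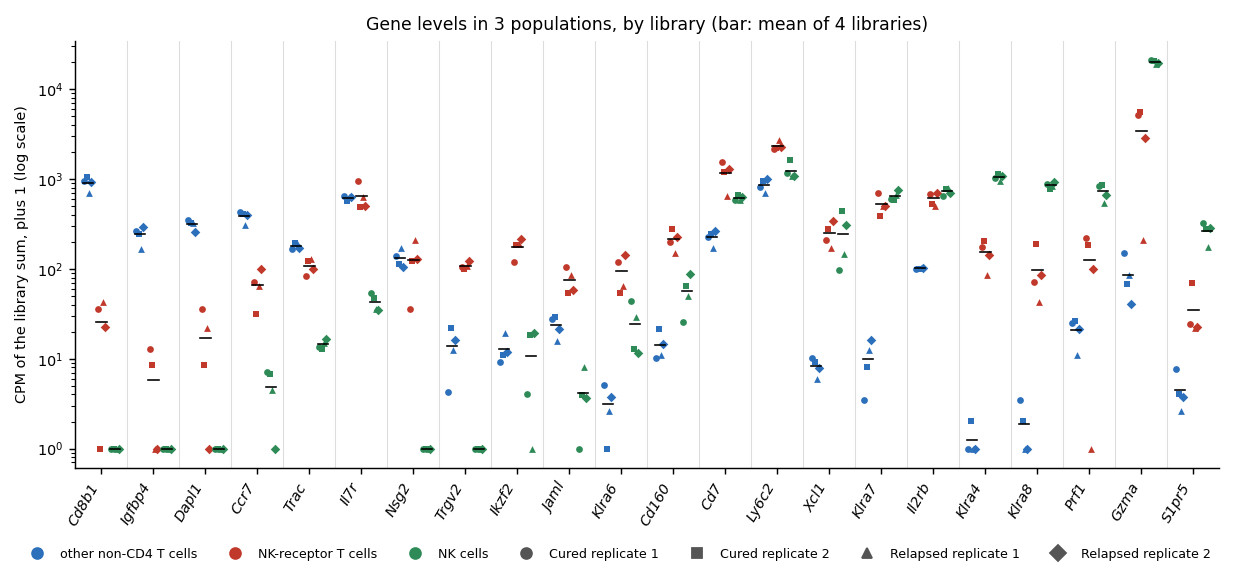
CPM plus 1 on a log scale for 22 genes, with other T cells in blue, gate cells in red and NK cells in green. Each symbol is 1 library and the bar is the mean of the 4 libraries. Ikzf2, Klra6, Cd160, Cd7 and Ly6c2 have their highest mean in the gate, while Klra4, Klra8, Prf1 and Gzma lie between other T cells and NK cells.

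Cytotoxic genes were lower than in NK cells in 9 of 13 tested members and higher in none (median -0.89). Perforin was lower (-2.19), and so was Gzma (-2.34, 3457 ± 2463 against 20165 ± 796 CPM), although the Gzma call was lost without Cured replicate 1, Cured replicate 2 or Relapsed replicate 2 (adjusted p = 0.111, 0.109 and 0.205). Serpinb9b, a serpin gene, had no UMI in the gate and 195 in NK cells, at least 19.7-fold higher there, a call lost with DESeq2 (adjusted p = 0.433). Cma1 (mast cell chymase) measured 46.7, 30.5, 0 and 28.5 CPM against 416 ± 18.2 CPM (-3.55). The transcription factors Irf8 (-2.48), Zeb2 (-2.27), Tbx21 (-1.29) and Eomes (-1.09) were lower, the Tbx21 and Eomes calls not in thinned cells (adjusted p = 0.168 and 0.286). S1pr5, the receptor by which mature NK cells leave tissue, was lower (-2.66), as was the integrin Itgam (CD11b, -2.62). Prdm1, which encodes Blimp-1, had no UMI in the gate and 58 in NK cells, at least 5.87-fold higher there.

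Many T cell genes were higher than in NK cells. Of 14 tested T cell receptor and coreceptor genes 10 were higher and none lower, with a median of 2.14 (1.72 with genes absent from NK cells set to the floor). Trac measured 13.5 ± 1.81 CPM in NK cells (log2 fold change 3.19). Il7r measured 946, 488, 633 and 506 CPM in the gate against 42.1 ± 9.02 CPM (4.11, adjusted p = 6.66e-65), with no overlap. Nsg2, which had 47 UMIs in the gate and none in NK cells, was at least 51.6-fold higher. Trgv2, with 44 UMIs against none, was at least 48.3-fold higher. It was the only one of 3 tested gamma-delta genes that was higher. Trdv4 was lower than in NK cells and Trdc did not pass. The naive and memory T cell genes Tcf7 (2.09), Lef1 (1.58), Ccr7 (4.24), S1pr1 (2.11) and the lymphotoxin gene Ltb (3.1) were higher. Bcl11b had 15 UMIs in the gate and 3 in NK cells, a ratio of 16.5 with a counting interval of 4.66 to 88.8. The chemokine receptor Cxcr6, which marks tissue-associated T cells, had 17 UMIs in the gate and 1 in NK cells, a ratio of 56.0 with a counting interval of 8.78 to 2341. Interferon-response genes were higher in 4 of 10 (median 0.41), with Ifi27l2a (4.91) among them. Xcl1 did not pass (0.22), although without Cured replicate 2 it did (0.69, adjusted p = 0.0255), and Il2rb did not pass (0.01, SE 0.12).

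Among the populations compared, where memory CD8 T cells were not set apart, a few genes had their highest level in the gate. Klra6, Cd7 and Jaml are among those singled out after their values were seen, and the contrasts share the gate libraries, so each contrast is given beside the other. Ikzf2 measured 9.74 ± 9.55 CPM in NK cells and was 4.28 higher in the gate (SE 0.38, adjusted p = 5.15e-23), beside 3.61 against other T cells. Cd160, a receptor for HVEM (GRCm38, chr3:96798763-96829351, minus strand), measured 199, 274, 148 and 228 CPM in the gate. It measured 13.2 ± 5.09 CPM in other T cells and 56.1 ± 26 CPM in NK cells, with log2 fold changes of 3.66 and 2.14. Cd7, a surface protein of T and NK cells, measured 1542, 1212, 655 and 1283 CPM against 227 ± 40.3 and 619 ± 41.2 CPM (2.10 and 1.18). UMIs of Cd7 were found in 87.5% of gate cells (79.9 to 93.0), 42.0% of other T cells, 50.9% of NK cells and 0.131% of B cells. Ly6c2 measured 2150, 2188, 2745 and 2273 CPM against 866 ± 131 and 1244 ± 260 CPM (1.09 and 1.11, adjusted p = 0.00123 and 0.00148). The calls of Ikzf2, Cd160, Cd7 and Ly6c2 held in both contrasts under each alternative run. Jaml, an adhesion protein of gamma-delta T cells in skin, measured 105, 53.4, 84.5 and 57 CPM against 22.5 ± 6.14 and 3.14 ± 2.90 CPM (1.29 and 4.60), and its call against other T cells was lost without Cured replicate 1 (1.18). Exons of Gm29114, Pdzk1, Gm11775 and Gm10684 overlap those of Ikzf2, Cd160, Cd7 and Jaml on the opposite strand. Whether counting took the strand into account is not stated in the sources used here.

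The gate was not uniform, and granzyme A set a group of cells apart. The cut at 3 Gzma UMIs was placed after the values were seen, so what follows is a description with no test. Of 112 cells 74 had no Gzma UMI, 8 had 1 or 2 and 30 (26.8%) had 3 or more. Such cells were 17 of 1025 other T cells and 661 of 678 NK cells. The 30 cells had a median of 2584 UMIs, a Cd3 sum of 4 and an NK sum of 31. The other 82 cells had medians of 3835.5, 9 and 6. Cd3e, a marker of the label and a gate gene, had UMIs in 6 of the 30 cells (171 CPM over the pooled cells) and 70 of the 82 (714 CPM). Trac was found in 5 and 24 cells and Ncr1 in 21 and 15. Whether the 30 cells are T cells, as the label has it, was not tested. Gzma-carrying cells were thus shallower, with fewer Cd3 and more NK gene UMIs.

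Other genes of mature NK cells followed that cut. Klrg1, an inhibitory receptor of terminally differentiated cells, was found in 19 of 30 cells against 0 of 82, Prf1 in 63.3% against 8.54%, Klra8 in 40.0% against 3.66% and Irf8 in 43.3% against 6.10%. The 82 cells carried Il7r in 78.0% against 10.0%, Ltb in 85.4% against 23.3%, Ikzf2 in 42.7% against 10.0% and Xcl1 in 58.5% against 23.3%. Nsg2 was found in 30 of 82 and 0 of 30. Klra7, Cd160 and Cd7 parted less, at 59.8% against 53.3%, 46.3% against 36.7% and 89.0% against 83.3%. Their CPM over the pooled cells went the other way, at 441 against 738 for Klra7, 222 against 246 for Cd160 and 1119 against 1648 for Cd7. Gamma-delta constant UMIs were present in 32.9% of the 82 cells and 16.7% of the 30, and alpha-beta constant UMIs in 80.5% and 56.7%. Depth differed between the groups and moves such shares. In CPM over the pooled cells, Ikzf2 stood at 225 CPM in the 82 cells and 32.1 CPM in the 30, Il7r at 749 and 139, Prf1 at 22.5 and 535, and Ly6c2 at 2466 and 1637. The label's marker Ikzf2 therefore belonged mainly to the cells with little or no Gzma.

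**Figure D4:**
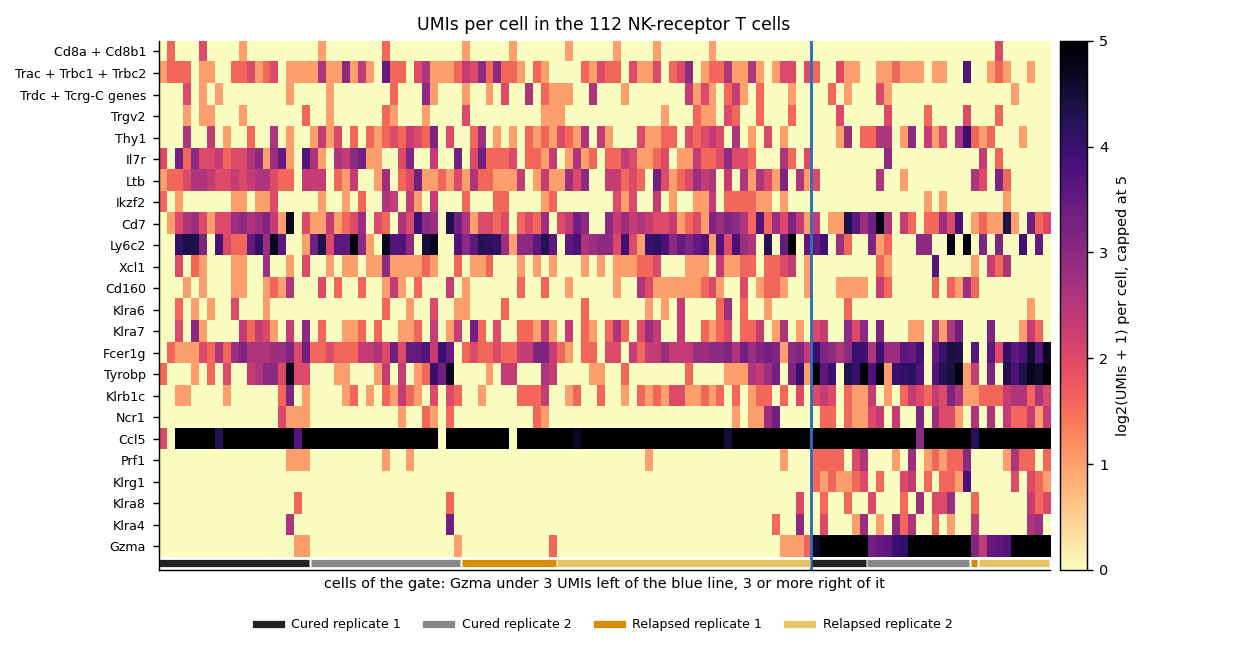
Each column is 1 of the 112 gate cells and each row a gene or gene sum, coloured by log2(UMIs + 1), capped at 5. Cells with under 3 Gzma UMIs are left of the blue line, 30 cells with 3 or more right of it, and the bar below gives the library. Tyrobp, Prf1, Klrg1 and Klra8 are dense on the right, Il7r, Ltb and Ikzf2 on the left, and Cd7 and Ccl5 run through both.

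Without these 30 cells the contrast with other T cells was run again, an alternative added after the data were seen. It called 346 of 4012 genes, 319 of them shared with the 548. NK receptors were still higher in 17 of 20 tested members (median 3.99), with Klra7, Klra1, Klrk1 and Cd160 among them. Cytotoxic genes were higher in 4 of 12 (Ctsw, Nkg7, Serpinb6b and Srgn), and Prf1 stood at -0.075. Calls described above that were lost include the factors Eomes, Zeb2, Klf2 and Bach2, the T cell gene Cd5, Syk, Trdv4, Fasl, S1pr5, Itga2, Tnfrsf9, Bst2, Hmgb2 and Hsp90ab1. Trbc2, Gzmb, Ctsd, Serpinb9 and Itgb1 no longer passed either. Ikzf2, Xcl1, Il2rb, Tbx21, Ifng and Trgv2 still did. Against NK cells, leaving out the same 30 cells gave 609 of 4012 genes, 376 higher and 233 lower. Without the gate cells that carried CD8 or gamma-delta UMIs, also left out as a later addition, 494 genes passed.

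The study compared blood leukocytes early in treatment between mice that were later cured and mice that relapsed. Gate cells made up 0.688%, 0.774%, 0.400% and 0.960% of kept barcodes. The 2 Cured libraries averaged 0.731% ± 0.0607 (SD) and the 2 Relapsed ones 0.680% ± 0.396, a difference within the spread (exact two-sided permutation p = 1). Among T cells without CD4 they made up 7.05%, 10.2%, 5.68% and 15.3%, or 8.60% ± 2.20 against 10.5% ± 6.80 (exact permutation p = 1). The 2 Relapsed libraries were the lowest and the highest, with the Cured libraries between them, and exact binomial intervals (counting error only) of the 2 Relapsed libraries did not overlap (3.06 to 9.51 and 11.2 to 20.2). The sign of the difference depended on which Relapsed library was kept. With replicate 1 left out it was -6.7 percentage points, and with replicate 2 left out 2.93. Applied anew to counts thinned to 1000 UMIs per cell, the gate held 14, 13, 9 and 15 cells. These were 4.33%, 4.68%, 5.45% and 6.73% of the T cells without CD4 UMIs after thinning, with overlapping binomial intervals. Both Relapsed libraries were above both Cured ones (exact permutation p = 0.333, the smallest that 2 against 2 can give). No difference in the number of gate cells was detectable with 2 pools a group.

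**Figure D5:**
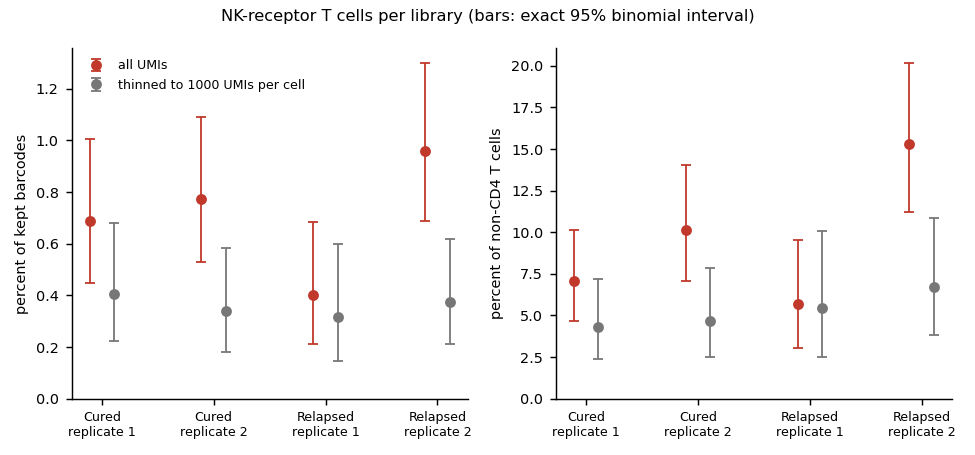
Share of NK-receptor T cells among kept barcodes (left) and among T cells without CD4 (right) in each library. Red is from all UMIs, and grey is from cells thinned to 1000 UMIs with the gate applied anew. Bars are exact 95% binomial intervals. Relapsed replicate 2 is highest and Relapsed replicate 1 lowest with all UMIs (15.3% and 5.68% on the right), and the thinned values lie between 4.33% and 6.73%.

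Within the gate no gene passed an adjusted p of 0.05 between Cured and Relapsed (0 of 1305 tested, edgeR, and 0 by DESeq2). At an unadjusted p under 0.05 edgeR had 91 genes (6.97%) and DESeq2 12. The groups of 2 did not overlap in 508 genes (38.9%), and the median of all genes was 0.01. The count of 0 rested on all 4 libraries. Without Relapsed replicate 2, where Relapsed replicate 1 with 13 cells is the lone Relapsed library and is taken to vary like the Cured ones, 62 genes passed, 28 higher and 34 lower in Cured. Leaving out another library gave 1 to 6.

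Genes were named by smallest p among those at a mean of 50 CPM or more whose 2 groups did not overlap. That the groups part in the named genes was thus a condition of naming them. Those higher in Cured include Gzmk and Klrg1. Gzmk, a granzyme of memory T cells, measured 93.5, 297, 0 and 14.3 CPM, a log2 fold change of 4.06 (SE 0.85, adjusted p = 0.35). Its 49 UMIs lay in 9 cells, all with 3 or more Gzma UMIs. Klrg1 measured 140, 221, 0 and 64.1 CPM (1.86, SE 0.58, adjusted p = 0.669), also only in Gzma-carrying cells. Cells with 3 or more Gzma UMIs were 26.9%, 40.6%, 7.69% and 22% of the gate in the 4 libraries, or 7, 13, 1 and 9 cells. Both Cured libraries were above both Relapsed ones, on a cut placed after the values were seen. All 11 tested cytotoxic genes had positive fold changes (median 0.46, 2 of them at an unadjusted p under 0.05, none called). Of all 1305 genes tested, 666 had positive fold changes (median 0.0089). Without the Gzma-carrying cells 0 of 830 genes passed. Cxcr3 measured 175, 168, 42.2 and 64.1 CPM (1.43, SE 0.46), Pdia3 315, 343, 127 and 143 (1.14) and Hspa8 1507, 1243, 866 and 698 (0.70), all at an adjusted p of 0.669. For Hspa8, which encodes a constitutive heat shock protein, both Cured libraries were also above both Relapsed ones in other T cells (1294, 1110, 718 and 902 CPM).

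Arhgef1, Bcl2, Emb and Scaf11 were among those named by smallest p on the lower side, under the same condition and none of them called. Bcl2, the survival factor, measured 187, 160, 296 and 321 CPM (-0.97, SE 0.33, adjusted p = 0.669), and Emb, a cell adhesion protein, 187, 152, 359 and 264 CPM (-0.95, SE 0.35). Both were rarer in Gzma-carrying cells, at 118 and 21.4 CPM against 273 and 283 CPM in the rest. The markers of the label did not pass either. Ikzf2 had a difference of -0.52 (SE 0.35, adjusted p = 0.862), Xcl1 of -0.29 (SE 0.36), Klra7 of -0.04 (SE 0.31) and Cd160 of 0.14 (SE 0.34). None of the lists had a called member. Whether the Cured minus Relapsed difference in the gate differed from that in other T cells was tested as an interaction, which called 3 of 4431 genes (0.0677%), 1 higher (0.0226%) and 2 lower (0.0451%), all of them T cell receptor beta variable segments carried by 1 to 3 gate cells.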

How the data were processed

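The deposited files hold raw UMI counts per gene and barcode for each library, which the authors made with Cell Ranger 3.1.0 on mm10, per the submitters' processing notes. The annotation release and strand setting are not given in the sources used here. Barcodes with at least 200 genes and at most 10% mitochondrial UMIs were kept. UMIs were summed per library and population and tested with edgeR 4.0.16 (quasi-likelihood, TMM, filterByExpr, Benjamini-Hochberg over all tested genes), with limma 3.58.1 and R 4.3.3. The 15 gate genes were left out of contrasts between populations. Scripts were tested on simulated data. DESeq2 1.42.0, the gate, thinning and left-out libraries were alternatives. Shares were compared by exact permutation tests (scipy 1.17.1), with exact binomial intervals that cover counting error only. Scrublet ran in scanpy 1.11.5. Doublets were not removed. Coordinates are from GENCODE M21 (GRCm38), which matched 32235 of 32287 feature identifiers.

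The gate, the lists and the tests were chosen with earlier results of these data known. Named genes are the 15 largest changes in each direction past the test, alike in all 4 libraries and at 100 CPM or more, up to 8 called members of each list, and, between outcomes, 6 per direction by smallest p. Klra6, Cd7, Jaml, Klf2, Zbtb16, Foxp3, Mki67 and the beta variable segments lie outside this rule and were chosen after their values were seen.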

Additional observations from a re-analysis of the deposited data

Results flagged for a closer look

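The Cured minus Relapsed difference differed between gate cells and other T cells, by edgeR's interaction test, for 3 T cell receptor beta variable segments, which are named here because the test called them. Trbv1 measured 0, 0, 63.3 and 164 CPM in gate cells and 78.6, 50.6, 49.4 and 102 CPM in other T cells (log2 difference -8.32, SE 1.66, adjusted p = 0.00121). Its 26 UMIs lay in 3 gate cells. Trbv14 measured 58.4, 206, 0 and 0 CPM against 44.7, 42.5, 39.5 and 28.6 CPM (8.40, SE 1.84, adjusted p = 0.00766), on 32 UMIs in 2 gate cells. Trbv15 measured 0, 0, 0 and 143 CPM against 89.3, 97.2, 29.7 and 72.2 CPM (-9.02, SE 1.58, adjusted p = 5.56e-05), on 20 UMIs in 1 gate cell. Each log2 value sets groups at 0 against groups with reads and is no bound. All 3 calls were lost with DESeq2, without Cured replicate 2 and without Relapsed replicate 2, where the Trbv15 value was -1.54. Those of Trbv1 and Trbv15 were also lost in thinned cells, that of Trbv1 without Cured replicate 1 and that of Trbv14 without Relapsed replicate 1, with the stricter gate and in cells under the 95th percentile of UMIs.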

How the results depend on the processing

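Between Cured and Relapsed, where 0 genes passed, 5 passed without the count filter and 2 with the replicate number as a block, and 1 to 62 with 1 library left out (62 without Relapsed replicate 2). Libraries share only a number: same-numbered libraries deviated together with a correlation of 0.127, over 2 pairs. Against other T cells, 287 genes passed in cells thinned to 1000 UMIs and 346 without cells with 3 or more Gzma UMIs. Against NK cells 260 passed in thinned cells and 609 without cells with 3 or more Gzma UMIs. The interaction gave 0 genes with DESeq2, 0 in thinned cells, and 1 to 6 with a library left out (1 without Cured replicate 2, 6 without Cured replicate 1). Directions turned for Prf1 against other T cells without the Gzma-carrying cells (-0.075), for Zfp36 in thinned cells (-0.085), and for Klra7 against NK cells. Its uncalled difference of -0.10 ranged from -0.27 to 0.054 with a library left out, and was 0.0012 under the 95th percentile of UMIs, 0.0079 with the gate on Fcer1g and Tyrobp and 0.071 without CD8 or gamma-delta UMIs. The cause was not tested.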
